A study of Mus musculus with 12 samples.

Results

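Igfbp2 and Igfbp3 encode binding proteins for the insulin-like growth factors (IGFs), and their levels in sorted mouse keratinocytes are described here across genotype and cell population. These 2 genes were taken by their annotated symbols from the 11287 genes measured, and were chosen by their log2 intensities in the 4 groups of these same arrays. Their values in these groups are therefore a description and carry no test. RNA levels were measured with Mouse Exon ST arrays from Affymetrix in epidermal cells of the back skin. The mice were female and 9.5 weeks old, an age at which hair follicles rest. The 4 groups were WT CD34+ITGA6+, K14ΔNLef1 CD34+ITGA6+, WT ITGA6+ and K14ΔNLef1 ITGA6+ cells, with 3 arrays per group and 12 in all. CD34 marks stem cells of the hair follicle bulge, and ITGA6 (integrin α6) marks basal cells attached to the basement membrane. By the study's methods the ITGA6+ cells were sorted as CD34-negative. WT mice are wild type. In K14ΔNLef1 mice a transgene under the keratin 14 promoter makes Lef1 that lacks its β-catenin-binding amino-terminal part. That promoter is active in basal keratinocytes of the epidermis and its appendages, so both sorted populations could carry the transgene product. Arrays of a group are biological replicates by their titles, but the sources used here do not say how many mice stand behind each.

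IGF1 and IGF2 act through the receptor IGF1R, a tyrosine kinase that recruits insulin receptor substrates and activates PI3-kinase and AKT. The IGF binding proteins are secreted proteins that hold the ligands outside the cell, where they can withhold them from the receptor, protect them from breakdown or deliver them once cut by proteases. IGFBP3 is the main carrier of IGFs in blood, where it forms a complex with the ligand and the acid-labile subunit, and in human epidermis it is made by basal keratinocytes. IGFBP2 carries an integrin-binding motif besides its IGF-binding domains. Igfbp2 lies on mouse chromosome 1 beside Igfbp5, and Igfbp3 lies on chromosome 11 beside Igfbp1.

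Because the transgene product keeps the DNA-binding domain of Lef1, the sequence before the start site of both genes was read from RefSeq (GRCm38.p6). The windows below hold the 250 bases before an annotated start, 5′ to 3′ on the gene's own strand. Capitals mark the GC box GGGCGG, a letter pattern chosen after the sequences were seen. The Igfbp2 window is chr1:72824230-72824479 on the plus strand, and the Igfbp3 window is chr11:7213924-7214173 on the minus strand.
Igfbp2: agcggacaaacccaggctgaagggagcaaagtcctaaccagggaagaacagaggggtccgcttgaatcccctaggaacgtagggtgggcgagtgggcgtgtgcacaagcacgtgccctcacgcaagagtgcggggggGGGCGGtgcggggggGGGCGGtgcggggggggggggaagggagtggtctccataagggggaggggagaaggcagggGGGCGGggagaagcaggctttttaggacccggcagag
Igfbp3: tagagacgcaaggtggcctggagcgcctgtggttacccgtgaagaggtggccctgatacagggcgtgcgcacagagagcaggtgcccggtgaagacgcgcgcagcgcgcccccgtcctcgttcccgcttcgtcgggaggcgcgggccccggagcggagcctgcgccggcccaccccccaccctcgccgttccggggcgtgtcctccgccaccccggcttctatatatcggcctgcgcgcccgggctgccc
The Igfbp2 window had a GC content of 67.2% and held the GC box 3 times, and the Igfbp3 window had a GC content of 73.2% and held it 0 times. The window before a second RefSeq start of Igfbp2, at chr1:72825137-72825386, had a GC content of 56.4% and held the GC box 0 times. Of all 32851 promoter windows of this length, 32.7% held the GC box on either strand. The LEF1 core letters CTTTGA and CTTTGT were found on neither strand of the Igfbp3 window or of either Igfbp2 window. CTTTGA occurred in 13.8% and CTTTGT in 16.5% of all windows, and 27.6% held at least 1 of them. The absence of a match says only that these letters are not in these 250 bases. The study itself names Igfbp3 among genes that ΔNLef1 directly downregulates. It intersected chromatin immunoprecipitation in cultured K14ΔNLef1 keratinocytes with genes that differed in sebaceous glands of WT tail skin and with WT and K14ΔNLef1 keratinocyte profiles. By its figure legends those profiles covered unfractionated cells besides the sorted populations studied here. It also describes Igfbp3 as expressed in the sebaceous gland. Binding was not examined here.

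The labels were checked first on the genes that define them. Lef1 averaged 6.51 ± 0.56 in WT CD34+ITGA6+ and 6.21 ± 0.21 in WT ITGA6+ cells, against 12.58 ± 0.09 and 12.65 ± 0.08 in the corresponding K14ΔNLef1 cells (log2 intensity, mean ± SD, n = 3 arrays, as for all group values below). Cd34 averaged 11.81 ± 0.17 and 11.40 ± 0.27 in the WT and K14ΔNLef1 CD34+ITGA6+ arrays and 5.37 ± 0.12 and 5.33 ± 0.23 in the ITGA6+ arrays. Itga6 lay between 10.45 and 11.79 in all 12 arrays, and group means of the basal keratins Krt5 and Krt14 lay between 12.34 and 13.00. GEO's short descriptions of the arrays name the populations the opposite way round to the titles, and the Cd34 values went with the titles, which were followed. The array median, taken over all probe sets, lay between 7.35 and 7.63 (log2) and was lowest in WT CD34+ITGA6+ replicate 2. Background was not measured separately, so this median serves below as the mark of a low level. These are bulk measurements of sorted cells, in which fewer cells of a type and less RNA per cell cannot be told apart.

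Igfbp2 was low in WT cells of both populations and high in K14ΔNLef1 ITGA6+ cells. The gene level, the median over 7 probe sets, was 6.20, 5.88 and 5.72 in the WT CD34+ITGA6+ arrays and 5.83, 6.25 and 6.11 in the WT ITGA6+ arrays. It was 7.25, 6.78 and 6.68 in K14ΔNLef1 CD34+ITGA6+ cells. It was 9.54, 10.05 and 9.24 in K14ΔNLef1 ITGA6+ cells. All 9 arrays outside this last group lay below the median of their own array, and the 3 within it lay above it. Igfbp2 therefore entered the set of 5712 tested genes, those above the array median in at least 3 arrays, through the group in which it was high.

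The order of the Igfbp2 group means was K14ΔNLef1 ITGA6+ at 9.61 ± 0.41, K14ΔNLef1 CD34+ITGA6+ at 6.90 ± 0.31, WT ITGA6+ at 6.06 ± 0.21 and WT CD34+ITGA6+ at 5.94 ± 0.24. The WT groups overlapped, and the other neighbours in this order did not. In ITGA6+ cells the K14ΔNLef1 mean was higher than the WT mean by 3.55 ± 0.24 on the log2 scale (difference ± SE from the limma fit), an 11.7-fold difference in intensity. This was the 7th highest difference of the 5712 genes tested. In CD34+ITGA6+ cells the same difference was 0.97 ± 0.24, or 1.96-fold, and the 75th highest. The population difference, CD34+ITGA6+ minus ITGA6+, was -0.13 ± 0.24 in WT cells and -2.71 ± 0.24 in K14ΔNLef1 cells. The genotype effect in CD34+ITGA6+ cells less that in ITGA6+ cells was -2.58 ± 0.34 on the log2 scale. Over all genes tested, the arrays of the 2 genotypes did not overlap, with K14ΔNLef1 higher, for 9.42% of genes in ITGA6+ cells and 4.9% in CD34+ITGA6+ cells. Igfbp2 was among these in both populations, as its choice implies.

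**Figure D1:**
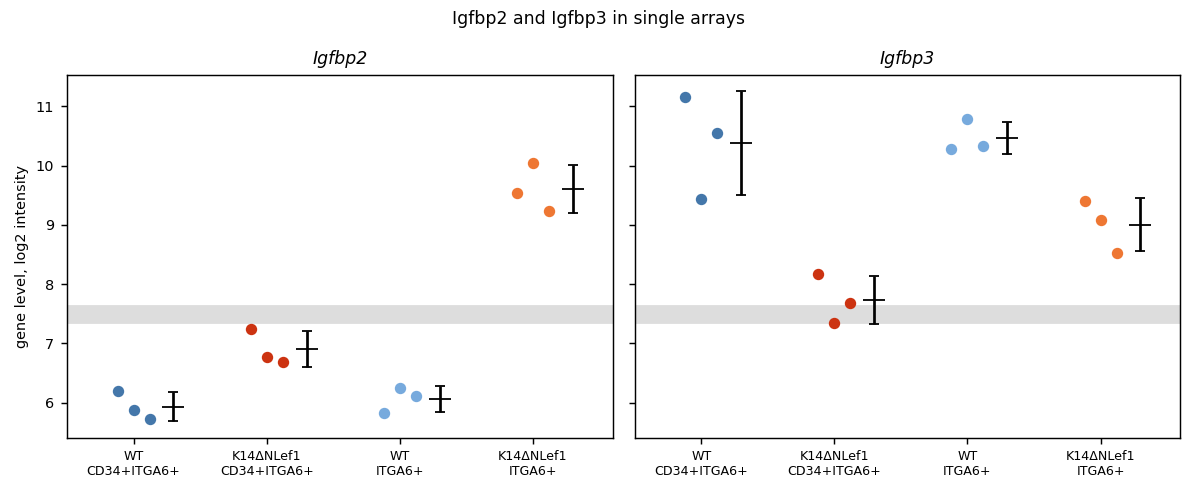
Gene level (log2 intensity) of Igfbp2 and Igfbp3 in each of the 12 arrays, by group. Points are arrays, the black mark and bar are the mean and SD of 3 arrays, and the grey band is the range of the array medians (7.35 to 7.63). Igfbp2 is above the band only in the K14ΔNLef1 ITGA6+ arrays, and Igfbp3 reaches the band only in the K14ΔNLef1 CD34+ITGA6+ arrays.

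Igfbp3 ran the other way and was high in WT cells. Its level, the median over 6 probe sets, was 11.16, 9.44 and 10.56 in the WT CD34+ITGA6+ arrays and 10.28, 10.78 and 10.34 in the WT ITGA6+ arrays. In K14ΔNLef1 ITGA6+ cells it was 9.40, 9.09 and 8.53. In K14ΔNLef1 CD34+ITGA6+ cells it was 8.17, 7.35 and 7.68, which came nearest to the array medians. The widest spread within a group was that of the WT CD34+ITGA6+ arrays, where replicate 2 was the lowest in all 6 probe sets.

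The order of the Igfbp3 group means was WT ITGA6+ at 10.47 ± 0.27, WT CD34+ITGA6+ at 10.39 ± 0.87, K14ΔNLef1 ITGA6+ at 9.01 ± 0.44 and K14ΔNLef1 CD34+ITGA6+ at 7.73 ± 0.42. The WT groups overlapped. WT CD34+ITGA6+ and K14ΔNLef1 ITGA6+ cells came close, at 9.44 for the lowest array of the first and 9.40 for the highest of the second. In CD34+ITGA6+ cells the K14ΔNLef1 mean was lower than the WT mean by a log2 difference of -2.65 ± 0.37, a 6.28-fold difference and the 5th lowest of the 5712 genes tested. In ITGA6+ cells it was -1.46 ± 0.37, or 2.74-fold, the 66th lowest. The population difference was -0.08 ± 0.37 in WT cells and -1.27 ± 0.37 in K14ΔNLef1 cells, and the genotype effects of the populations differed by -1.19 ± 0.52 (CD34+ITGA6+ minus ITGA6+). Without WT CD34+ITGA6+ replicate 2, the genotype difference in CD34+ITGA6+ cells was -3.12. The population difference in WT cells was 0.39 without that array and -0.47 without WT CD34+ITGA6+ replicate 1, so it had no settled sign. The genotypes did not overlap, with K14ΔNLef1 lower, for 7.76% of all genes tested in CD34+ITGA6+ cells and for 13.2% in ITGA6+ cells.

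The genes thus differed in which population held the larger genotype difference. For Igfbp2 it was the ITGA6+ population (3.55 against 0.97) and for Igfbp3 the CD34+ITGA6+ population (-2.65 against -1.46). The difference between the effects was less precise for Igfbp3 (-1.19 ± 0.52) than for Igfbp2 (-2.58 ± 0.34). Over 19 alternative fits it ran from -1.67 to -0.81 for Igfbp3 and from -2.76 to -2.14 for Igfbp2. In K14ΔNLef1 mice both genes were higher in ITGA6+ than in CD34+ITGA6+ cells, while in WT mice neither population difference exceeded its standard error. In K14ΔNLef1 mice the populations did not overlap for either gene, with CD34+ITGA6+ lower, as for 22.8% of all genes tested. At single probe sets this held for 5 of 7 in Igfbp2 and 5 of 6 in Igfbp3, against 12.3% of all probe sets. Across the 12 arrays Pearson's r between the levels of the genes was -0.37, a description over arrays that share 4 groups.

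The probe sets of a gene, each of which covers a stretch of an exon, were then compared. Probe set 4888822 had the widest range of the 7 for Igfbp2. It was 3.87, 3.63 and 2.26 in WT CD34+ITGA6+ and 3.78, 3.58 and 4.65 in WT ITGA6+ cells. It was 7.12, 6.78 and 7.02 in K14ΔNLef1 CD34+ITGA6+ cells and 10.85, 10.65 and 10.61 in K14ΔNLef1 ITGA6+ cells. Its genotype differences were 6.70 ± 0.40 in ITGA6+ and 3.72 ± 0.40 in CD34+ITGA6+ cells. At this probe set the K14ΔNLef1 CD34+ITGA6+ arrays stood clear of both WT groups, although they too stayed below the array medians.

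Of the other Igfbp2 probe sets, 4308391, 4702127, 4894493 and 5447799 lay at 7.35 or lower in every WT array and between 9.00 and 10.49 in the K14ΔNLef1 ITGA6+ arrays. Their genotype differences in ITGA6+ cells ran from 2.47 to 3.99. In CD34+ITGA6+ cells those of 4308391 and 4894493 were 1.38 ± 0.27 and 0.73 ± 0.22 with no overlap, whereas those of 4702127 and 5447799 were 0.007 ± 0.41 and 0.56 ± 0.39 with overlapping arrays. The remaining pair varied little. Probe set 4825612 lay between 8.60 and 9.18 in all arrays, with a genotype difference of 0.33 ± 0.19 in ITGA6+ cells, and 5553170 lay between 4.96 and 6.25. In all, 6 of 7 probe sets had no overlap between the genotypes in ITGA6+ cells and 3 of 7 in CD34+ITGA6+ cells, each with K14ΔNLef1 higher. Over all 114330 probe sets these shares were 6.72% and 4.88%.

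Of the 6 Igfbp3 probe sets, 5 were lower in K14ΔNLef1 than in WT cells of both populations with no overlap. The brightest, 5426997, was 12.78, 11.18 and 11.82 in WT CD34+ITGA6+ and 9.23, 8.75 and 9.17 in K14ΔNLef1 CD34+ITGA6+ cells. In ITGA6+ cells it was 11.74, 12.27 and 12.03 in WT and 11.11, 10.68 and 10.36 in K14ΔNLef1 mice. It stayed above the array median in every array, unlike the gene's median level. Across the 5 probe sets the genotype differences ran from -3.14 to -2.24 in CD34+ITGA6+ cells and from -1.66 to -1.14 in ITGA6+ cells. The sixth, 5312150, lay between 7.27 and 8.31 in all arrays, with differences of 0.25 ± 0.31 and -0.17 ± 0.31. Over all probe sets, K14ΔNLef1 was lower with no overlap for 6.33% in CD34+ITGA6+ and 9.1% in ITGA6+ cells. The exons that the probe sets lie in were not looked up here, since no annotation of the arrays' genome build was used.

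**Figure D2:**
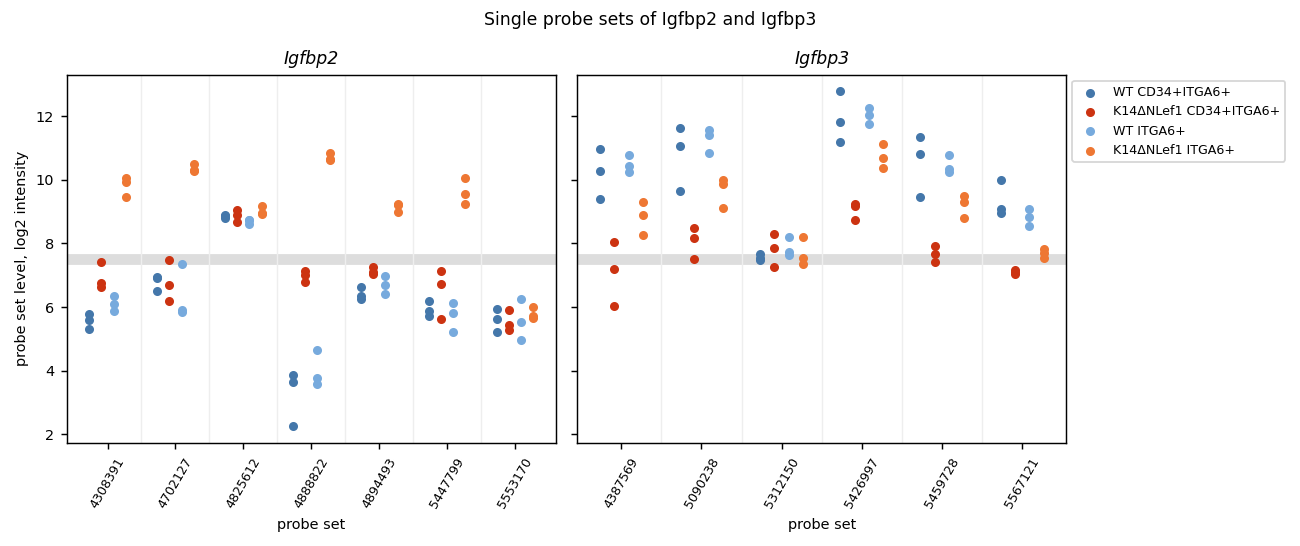
Level (log2 intensity) of each probe set of Igfbp2 (7) and Igfbp3 (6) in each array, with 3 points per group and the range of the array medians in grey. Probe sets 4825612 and 5553170 of Igfbp2 and 5312150 of Igfbp3 stay within narrow ranges across groups, and the others carry the differences between groups.

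The other IGF binding proteins were compared next. Of the 8 genes listed in this family, 7 were measured, all but Igfbp7, and Igfbp1, Igfbp2, Igfbp3 and Igfbp6 passed the filter on low values. Igfbp6, which prefers IGF2 as a ligand, was 8.15, 8.81 and 8.52 in WT CD34+ITGA6+ arrays and 6.37, 6.81 and 6.87 in WT ITGA6+ arrays. The population difference in WT cells was 1.81 ± 0.33 (limma, Benjamini-Hochberg adjusted p = 0.0014), and it passed in all alternative fits in which the gene was tested. All 3 probe sets were higher in CD34+ITGA6+ cells, but by widely different amounts, from 0.10 to 5.14. Igfbp6 was above the array median in all WT CD34+ITGA6+ arrays and in only 1 other array, so it passed the filter through the group in which it was high, and the fit without the filter called it too (adjusted p = 0.00312). In K14ΔNLef1 CD34+ITGA6+ cells Igfbp6 was 8.38, 7.03 and 6.97, which overlapped the WT arrays. The genotype difference of -1.04 ± 0.33 did not pass (adjusted p = 0.184), and it passed only when K14ΔNLef1 CD34+ITGA6+ replicate 1 was left out. Igfbp1, the neighbour of Igfbp3, had group means between 7.56 and 7.88, close to the array medians, and genotype differences of 0.28 ± 0.23 and 0.11 ± 0.23 (adjusted p = 0.808 and 0.91).

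Igfbp5, the neighbour of Igfbp2, fell below the filter because it was above the array median in only 2 arrays, and its values come from a fit of all 11287 genes. It was 8.33, 7.18 and 8.09 in WT CD34+ITGA6+ cells and 6.82, 6.10 and 6.28 in K14ΔNLef1 CD34+ITGA6+ cells. It was 5.06, 5.27 and 5.22 in WT ITGA6+ cells and 6.27, 6.07 and 5.84 in K14ΔNLef1 ITGA6+ cells. The WT population difference was 2.68 ± 0.28 (limma, adjusted p = 3.08e-05), with all 12 probe sets higher in CD34+ITGA6+ cells. In CD34+ITGA6+ cells the genotype difference was -1.46 ± 0.28 (adjusted p = 0.0226), with all 12 probe sets lower. This call was lost without WT replicate 1 or 3 or without K14ΔNLef1 replicate 2 or 3 of that population, with an adjusted p of up to 0.101. In ITGA6+ cells it was 0.87 ± 0.28 and did not pass (adjusted p = 0.137). The genotype effects of the populations differed by -2.34 ± 0.39 (adjusted p = 0.0139), which held without any single array. Over the 11287 genes, 3.67% were called higher in the WT population comparison, 0.7% lower for the genotype in CD34+ITGA6+ cells and 0.381% lower in the difference between genotype effects.

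Igfbp3 and Igfbp5 were thus both lower in K14ΔNLef1 than in WT CD34+ITGA6+ cells, while Igfbp2 and its neighbour Igfbp5 had differences of opposite sign there (0.97 and -1.46). WT CD34+ITGA6+ replicate 2 was the lowest of its group for Igfbp3 and for Igfbp5, and the highest for Igfbp6. K14ΔNLef1 CD34+ITGA6+ replicate 1 was the highest of its group for all 4 genes. Igfbp4 and the IGFBP-like gene Igfbpl1 had group means between 6.35 and 7.09 and no called difference without the filter, where adjusted p ran from 0.277 to 0.999.

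Among the ligands and receptors, Igf1 and Igf1r differed little between the groups. Igf1, made in skin mainly by dermal cells, had group means from 7.83 to 8.07, and Igf1r had means from 7.74 to 7.99. Their genotype differences were between -0.05 and 0.22, with adjusted p from 0.69 to 0.994. Insr, the insulin receptor, had means from 7.94 to 8.24 and genotype differences of -0.16 ± 0.20 and -0.20 ± 0.20 (adjusted p = 0.892 and 0.768). Igf2 lay at 6.69 to 7.07, below the array medians, with genotype differences of 0.09 ± 0.16 and 0.08 ± 0.16 (adjusted p = 0.958 and 0.941 without the filter). Igf2r, which takes IGF2 up for breakdown, was higher in the CD34+ITGA6+ population, by 0.75 ± 0.18 in WT mice (adjusted p = 0.00973) and by 0.66 ± 0.18 under the transgene (adjusted p = 0.0271). Igf2r was above the array median in all CD34+ITGA6+ arrays and in only 1 ITGA6+ array. It thus passed the filter through the population in which it was high, and the fit without the filter made both calls too. The second call was lost in 5 of 19 alternative fits, namely with only the arrays compared and without 4 of the single K14ΔNLef1 arrays, with an adjusted p of up to 0.103. Its genotype differences were 0.56 ± 0.18 and 0.65 ± 0.18 in CD34+ITGA6+ and ITGA6+ cells (adjusted p = 0.192 and 0.0537). The second of these passed when arrays were centred on their medians, quantile normalised or summarised by the mean over probe sets.

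**Figure D3:**
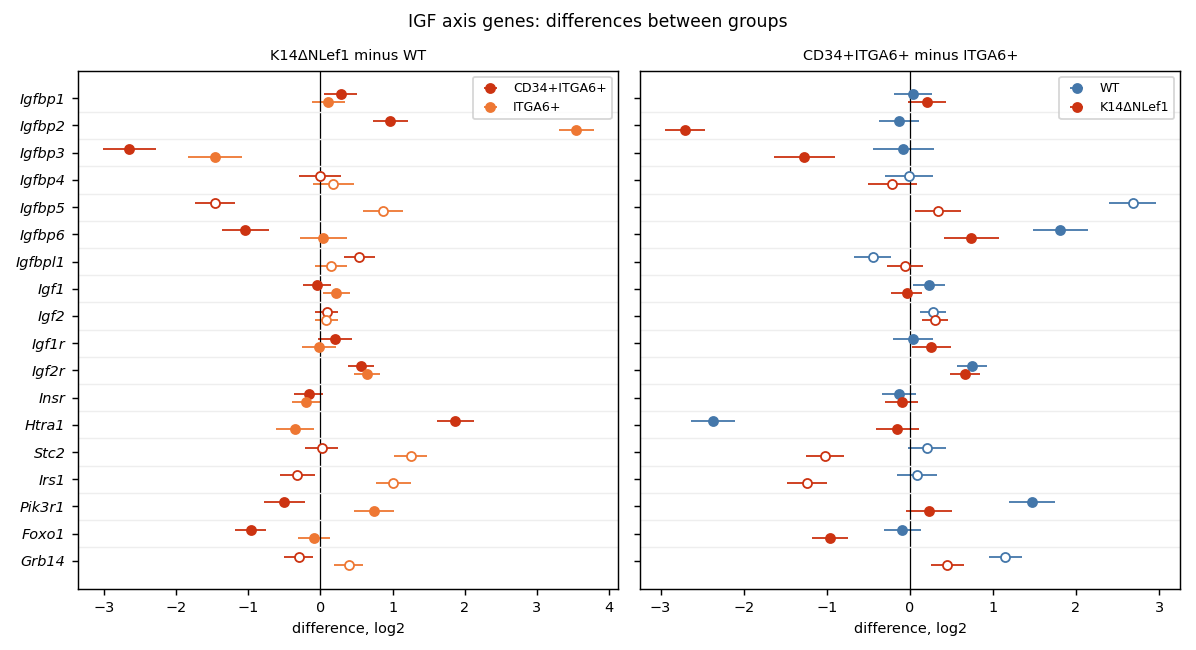
Differences on the log2 scale for 18 genes of the IGF pathway, K14ΔNLef1 minus WT on the left and CD34+ITGA6+ minus ITGA6+ on the right. Bars are standard errors of the fit, filled points are tested genes, and open points are genes below the filter, taken from the fit of all 11287 genes. Igfbp2 and Igfbp3 have the largest genotype differences of these genes in ITGA6+ and CD34+ITGA6+ cells respectively. Both were chosen for their values in these groups, so this is a description.

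Proteins that cut the binding proteins or act with them were represented by 6 listed genes, of which 4 were measured and 1, Htra1, was tested. Htra1 encodes a secreted serine protease that can cleave IGF binding proteins. It was 8.20, 7.93 and 8.93 in WT CD34+ITGA6+ cells and 10.61, 10.06 and 10.01 in K14ΔNLef1 CD34+ITGA6+ cells. In ITGA6+ cells it was 10.39, 10.76 and 11.01 in WT and 10.49, 10.46 and 10.18 in K14ΔNLef1 mice. Only the WT CD34+ITGA6+ arrays stood apart from the others. K14ΔNLef1 minus WT was 1.87 ± 0.26 in CD34+ITGA6+ cells (adjusted p = 0.00114, 8 of 9 probe sets higher). It was -0.35 ± 0.26 in ITGA6+ cells, which did not pass (adjusted p = 0.64). The WT population difference was -2.37 ± 0.26 (adjusted p = 2.15e-05), and the genotype effects differed by 2.22 ± 0.37 (adjusted p = 0.00655). These 3 calls passed in all alternative fits.

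Stc2 encodes stanniocalcin 2, an inhibitor of the IGFBP protease PAPP-A, whose gene Pappa was not measured here. Stc2 lay below the filter and was 6.45, 6.27 and 6.55 in WT ITGA6+ and 7.47, 7.37 and 8.19 in K14ΔNLef1 ITGA6+ cells. In the CD34+ITGA6+ arrays of both genotypes it lay between 6.31 and 6.89. Without the filter the genotype difference in ITGA6+ cells was 1.25 ± 0.23 (adjusted p = 0.00871) and held without any single array. The population difference in K14ΔNLef1 cells was -1.02 ± 0.23 (adjusted p = 0.017) and was lost without 3 of the 6 arrays compared, with an adjusted p of up to 0.0756. The test of the difference between the genotype effects did not pass (-1.23 ± 0.33, adjusted p = 0.153). Like Igfbp2, Stc2 was highest in all 3 K14ΔNLef1 ITGA6+ arrays.

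Of the listed cell-surface partners of IGFBPs, 3 of 4 were tested and none was called in any of the 5 comparisons (limma, with 0 or 1 at an unadjusted p under 0.05). These include Lrp1, a receptor that binds IGFBP3, which had genotype differences from -0.57 to -0.24, and Tmem219, described as an IGFBP3 receptor in human cells, which had group means from 7.61 to 8.24. The integrin β1 gene Itgb1 had group means from 10.82 to 11.26.

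The signal relay downstream of the receptors had 16 of 24 listed genes tested. Foxo1, a transcription factor restrained by insulin and IGF signalling, was 8.87, 8.85 and 9.04 in WT CD34+ITGA6+ and 7.86, 7.50 and 8.49 in K14ΔNLef1 CD34+ITGA6+ cells. In ITGA6+ cells of both genotypes it lay between 8.84 and 9.11. The population difference in K14ΔNLef1 cells was -0.96 ± 0.22 (adjusted p = 0.00964) and passed in all alternative fits, with a value of -0.56 under the mean over probe sets. The genotype difference in CD34+ITGA6+ cells was -0.97 ± 0.22 (adjusted p = 0.0335), but this call was lost in 11 of 20 alternative fits, with an adjusted p of up to 0.172. The genotype effect in CD34+ITGA6+ cells less that in ITGA6+ cells was -0.88 ± 0.31 and did not pass (adjusted p = 0.293). Pik3r1, the regulatory subunit of PI3-kinase, had a WT population difference of 1.47 ± 0.28 (adjusted p = 0.00203), with all 20 probe sets higher. In K14ΔNLef1 mice this difference was 0.23 ± 0.28 (adjusted p = 0.667), and the difference between the genotype effects did not pass (adjusted p = 0.208).

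Irs1 and Grb14, an insulin receptor substrate and an adaptor that inhibits the insulin receptor, lay below the filter. Irs1 was 6.22, 7.02 and 6.53 in WT ITGA6+ and 7.47, 7.88 and 7.45 in K14ΔNLef1 ITGA6+ cells, with all 7 probe sets higher. Without the filter this difference was 1.01 ± 0.24 (adjusted p = 0.0427), which was lost without 8 of the 12 single arrays. The population difference of Irs1 in K14ΔNLef1 cells was -1.24 ± 0.24 (adjusted p = 0.00704) and held without any single array. Grb14 had a WT population difference of 1.15 ± 0.20 (adjusted p = 0.00242), which also held without any single array. Over the 11287 genes, 1.32% were called higher for the genotype in ITGA6+ cells, 3.67% higher in CD34+ITGA6+ cells of WT mice and 4.2% lower in those of K14ΔNLef1 mice.

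**Figure D4:**
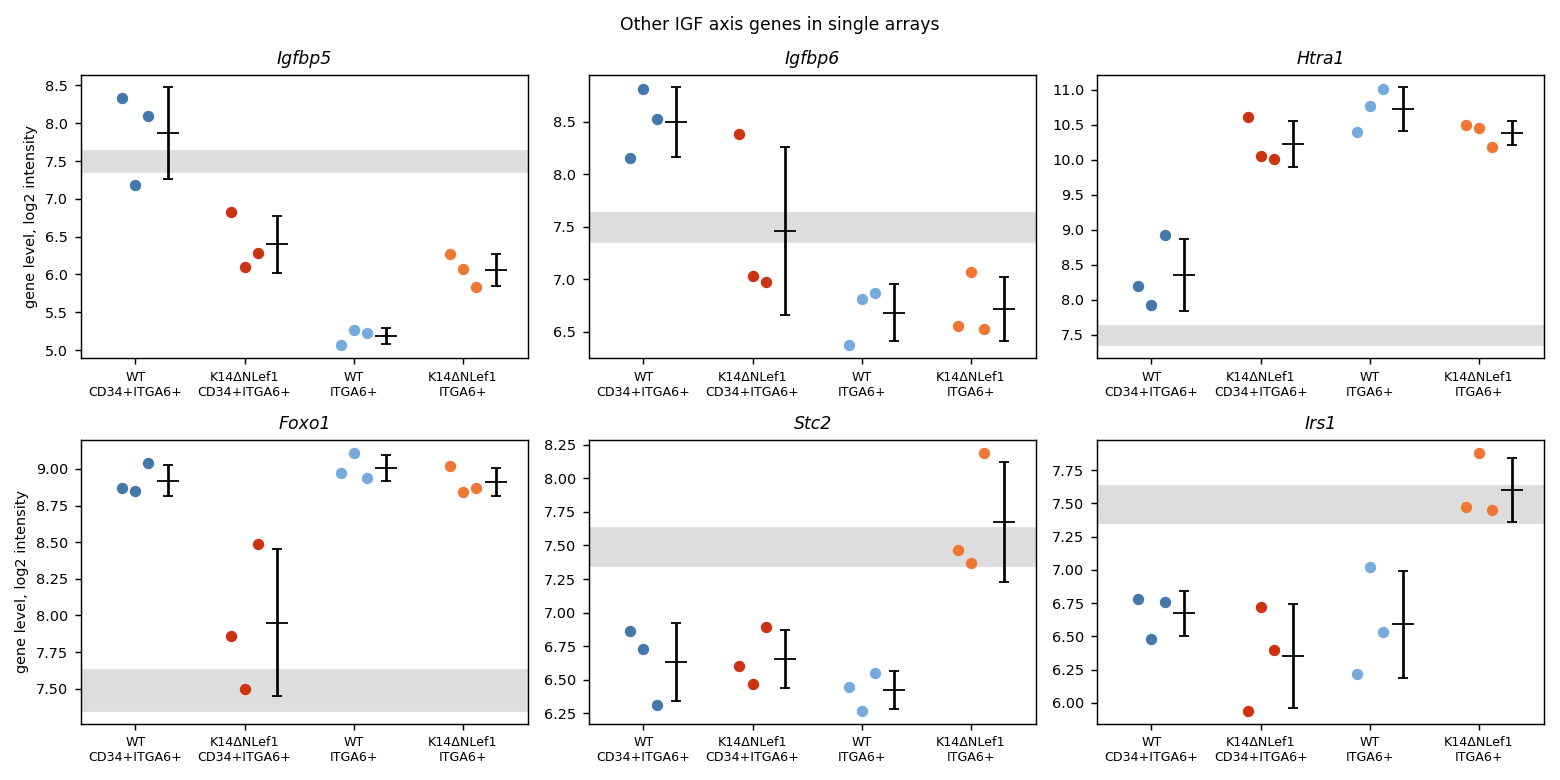
Gene level (log2 intensity) of Igfbp5, Igfbp6, Htra1, Foxo1, Stc2 and Irs1 in each array, with mean and SD of 3 arrays and the range of the array medians in grey. The vertical axes differ between panels. Htra1 is lowest in the WT CD34+ITGA6+ arrays (7.93 to 8.93), and Stc2 and Irs1 are highest in the K14ΔNLef1 ITGA6+ arrays.

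Besides Igfbp2 and Igfbp3, the 5 IGF lists held 48 genes, of which 40 were measured and 26 tested. In the genotype comparison in CD34+ITGA6+ cells, 1 of the 26 was called higher (Htra1) and 1 lower (Foxo1), against 0.7% and 1.21% of all genes tested. In the genotype comparison in ITGA6+ cells none of the 26 was called by limma, with 3 at an unadjusted p under 0.05, against 2.08% higher and 3.22% lower over all genes. In the population comparison, 3 were called higher and 1 lower in WT cells, against 5.72% and 11.5%, and 1 higher and 1 lower in K14ΔNLef1 cells, against 4.62% and 8.28%. In the difference between genotype effects 1 was called higher (Htra1), against 0.735% of all genes. The median genotype difference of the 26 genes was -0.05 in CD34+ITGA6+ and -0.06 in ITGA6+ cells, against -0.03 over all genes tested in both.

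Genes whose level was most like that of either binding protein were found by Pearson's r over the 12 arrays, among the other 5711 genes tested. Such an r describes arrays that share 4 groups, and has no p here. The highest for Igfbp2 were Nup210 (0.981), a nuclear pore protein, Fmo1 (0.975), a flavin-containing monooxygenase, and Tagln3 (0.973), followed by Cdo1 (0.964), the cysteine dioxygenase, and Pla2g4c (0.957), a phospholipase. Fmo1 averaged 10.41 ± 0.17 in K14ΔNLef1 ITGA6+ cells against 6.64 ± 0.18 in WT ITGA6+ cells, and Cdo1 averaged 8.18 ± 0.51 against 4.78 ± 0.41. All 5 were highest in K14ΔNLef1 ITGA6+ cells. The lowest r were those of Zbtb20 (-0.921), Itpr3 (-0.912) and Ppp2r3a (-0.906).

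For Igfbp3 the highest were Daglb (0.935), a diacylglycerol lipase, Plpbp (0.908), Gas6 (0.908), a secreted ligand of the TAM receptors, Jun (0.904), a subunit of AP-1, and the kinase gene Stk39 (0.902). Stk39 averaged 8.10 ± 0.35 and 9.03 ± 0.40 in the WT CD34+ITGA6+ and ITGA6+ groups and 6.68 ± 0.35 and 7.60 ± 0.31 in the K14ΔNLef1 ones. The lowest were Cd44 (-0.881), a hyaluronan receptor, Nlk (-0.871) and Lef1 (-0.860). Lef1 is itself the gene that the transgene carries.

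**Figure D5:**
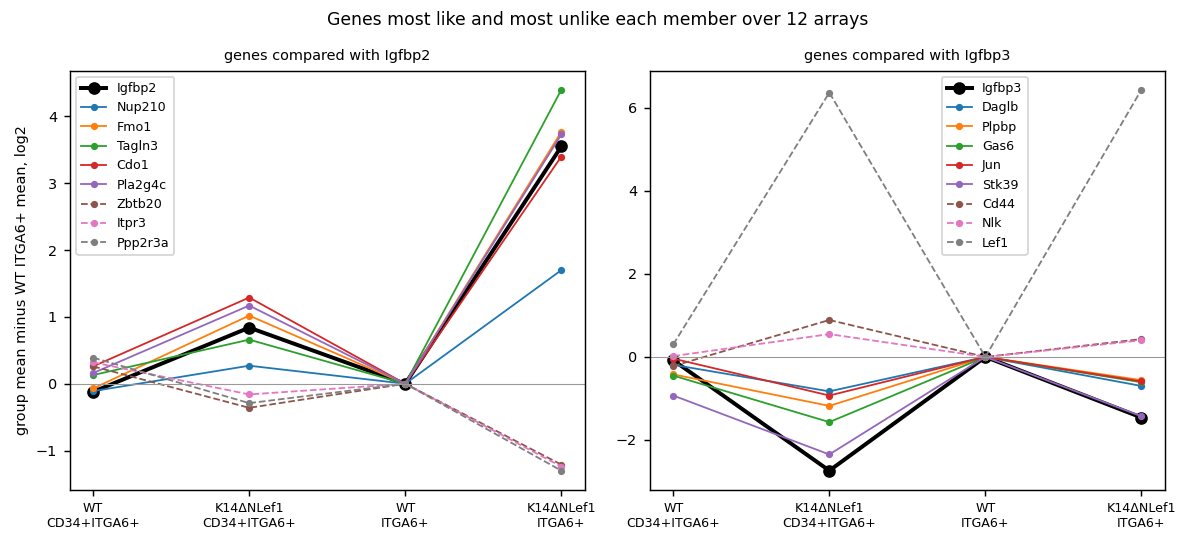
Group means of Igfbp2 (left) and Igfbp3 (right) and of the genes with the 5 highest (solid) and 3 lowest (dashed) Pearson's r over 12 arrays, each less its own WT ITGA6+ mean (log2). The vertical axes differ between panels. The genes most like Igfbp2 are highest in K14ΔNLef1 ITGA6+ cells, and those most like Igfbp3 are lowest in K14ΔNLef1 CD34+ITGA6+ cells.

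Markers of other cells that the sorted populations could hold were set beside these values. The mean level of 6 measured sebaceous genes, of 7 listed, moved with Igfbp2 between the genotypes in ITGA6+ cells. It was 7.86 to 8.06 in K14ΔNLef1 ITGA6+ arrays and 7.19 to 7.48 in WT ITGA6+ arrays. In CD34+ITGA6+ cells, where Igfbp2 was also higher in K14ΔNLef1 mice, the genotypes overlapped, at 6.93 to 7.53 in K14ΔNLef1 and 7.03 to 7.59 in WT arrays. Of its 4 tested genes, Mgst1 alone was called higher in K14ΔNLef1 ITGA6+ than in WT ITGA6+ cells (2.13 ± 0.35, adjusted p = 0.00193), as were 2.08% of all genes tested. Mgst1 was 7.11, 5.71 and 7.50 in the WT ITGA6+ arrays and 8.70, 8.95 and 9.08 in the K14ΔNLef1 ITGA6+ arrays. The lipid genes Scd1, Fasn and Plin2 had differences of 0.46, 0.21 and 0.04 that did not pass. In the population comparison Mgst1 was called higher in WT CD34+ITGA6+ cells (1.46 ± 0.35, adjusted p = 0.00964), and Scd1 lower in both genotypes (-1.68 ± 0.30 and -2.13 ± 0.30, adjusted p = 0.00133 and 3.02e-04). Of all genes tested, 5.72% were called higher and 11.5% lower there in WT cells, and 8.28% lower in K14ΔNLef1 cells. The mean level of 7 measured immune genes, of 8 listed, was 5.90 to 6.75 in WT and 6.42 to 7.16 in K14ΔNLef1 arrays of CD34+ITGA6+ cells, and 5.65 to 6.07 and 5.91 to 6.91 in ITGA6+ cells. Only Tyrobp and H2-Aa of these genes were tested, and neither was called by limma, with 1 at an unadjusted p under 0.05 in each genotype comparison. Tyrobp had genotype differences of 1.31 ± 0.35 and 1.24 ± 0.35 in CD34+ITGA6+ and ITGA6+ cells (adjusted p = 0.088 and 0.0572), without overlap of the genotypes. H2-Aa had differences of 0.86 ± 0.47 and 0.98 ± 0.47 with overlap (adjusted p = 0.617 and 0.339). Tyrobp and H2-Aa were above the array median only in K14ΔNLef1 arrays, and so passed the filter through the genotype in which they were high. Cd74, below the filter, had differences of 1.32 ± 0.36 and 1.11 ± 0.36 without overlap (adjusted p = 0.147 and 0.149 in the fit of all genes). Over all genes tested, K14ΔNLef1 was higher without overlap for 4.9% in CD34+ITGA6+ and 9.42% in ITGA6+ cells. Cd207, Cd3e and Cd52, also below the filter, had genotype differences from 0.0063 to 0.14 with overlap (limma without the filter, adjusted p from 0.952 to 0.999). Ptprc averaged 4.83 ± 0.50 in WT and 5.47 ± 0.51 in K14ΔNLef1 CD34+ITGA6+ cells, and 4.65 ± 0.29 and 5.08 ± 0.66 in ITGA6+ cells, with overlap in both. In replicate 1 of both K14ΔNLef1 groups the immune mean was 6.42 and 5.91, within the range of the WT arrays of their populations, and Igfbp2 was 7.25 and 9.54 and Igfbp3 8.17 and 9.40 in these arrays.

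The mean level of 5 measured suprabasal genes, of 7 listed, was 6.78 to 7.91 in WT CD34+ITGA6+ arrays and 7.79 to 8.54 in the others. Of its 3 tested genes, the keratins Krt1 and Krt10 were called lower in the WT CD34+ITGA6+ population than in the WT ITGA6+ population (-2.15 ± 0.32 and -1.43 ± 0.24, adjusted p = 2.63e-04 and 6.55e-04). In that comparison 11.5% of all genes tested were called lower. Within CD34+ITGA6+ cells all 3 genes were higher in K14ΔNLef1 than in WT mice, by 0.50 to 0.86. None was called there by limma, with 2 at an unadjusted p under 0.05, as for 572 of the 5712 genes tested. Within ITGA6+ cells the genotype differences of the 3 genes had both signs. Krt1 and Krt10 had genotype differences of -0.70 ± 0.32 and -0.51 ± 0.24 that did not pass (adjusted p = 0.308 and 0.326). The genotypes did not overlap for either, with K14ΔNLef1 lower, as for 13.2% of all genes tested. The desmosome gene Dsc1 had a difference of 1.43 ± 0.31 (adjusted p = 0.0142), but it was above the array median in the K14ΔNLef1 ITGA6+ arrays alone and so passed the filter only through the group in which it was high. The mean of all 8 fibroblast genes lay between 6.44 and 6.83 in all arrays. Of these, Thy1 was lower in K14ΔNLef1 than in WT ITGA6+ cells (-1.26 ± 0.24, adjusted p = 0.00604) and had a WT population difference of -1.33 ± 0.24 (adjusted p = 0.00138). It was above the array median in the WT ITGA6+ arrays and in only 1 other array, so it passed the filter through the group in which it was high, and the fit without the filter called both differences too (adjusted p = 0.0106 and 0.00283). Col1a2 had a population difference of 0.71 ± 0.17 in WT mice (adjusted p = 0.01) and of 0.62 ± 0.17 under the transgene (adjusted p = 0.0293), of which the second was lost in 4 of 19 alternative fits. Col1a2 was above the array median in the CD34+ITGA6+ arrays alone, so it passed the filter through the population in which it was high. The fit without the filter called both differences too. Mitf was higher in CD34+ITGA6+ cells by 2.57 ± 0.23 and 2.70 ± 0.23 (adjusted p = 2.84e-06 and 2.45e-06), while the other 5 measured melanocyte genes had group means at or below the array medians. So did all 5 endothelial genes. The part of these other cells in the values of Igfbp2 and Igfbp3 was not tested.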

How the data were processed

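RNA from FACS-purified cells was amplified and hybridised to exon arrays. The deposited table holds linear intensity values, 1 for each probe set on each array. The authors had normalised them by RMA (the submitters' notes name Affymetrix Power Tools and build mm9, without versions). RMA adjusts arrays to each other, so changes shared by most genes are partly removed, and amplification need not keep large and small differences in proportion.

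All intensities were put on the log2 scale. Of 114330 probe sets, 109796 (96.0%) had 1 gene symbol, 836 several and 3698 none. In all 1240 older symbols were updated through RefSeq (GRCm38.p6) and 27 kept as given. A gene's level was the median over its probe sets. Genes above the array median in at least 3 of 12 arrays were tested (5712, with 5575 left out). Using limma 3.58.1 (R 4.3.3), a linear model with 1 mean per group was applied to all arrays (8 residual degrees of freedom before moderation), two-sided, with Benjamini-Hochberg adjustment over all genes tested in each of 5 comparisons and a threshold of 0.05. The test was checked on simulated data. Arrays have no read depth, so their number limits the precision. No 2 arrays held identical values.

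Igfbp2, Igfbp3 and all gene lists were chosen with earlier results of these data known. The genes named were Igfbp2 and Igfbp3, the label checks, the measured IGFBP family, Igf1, Igf2, Igf1r, Igf2r and Insr, other listed IGF genes called in any comparison, the 5 highest and 3 lowest in likeness to either, and called fibroblast, melanocyte, immune and endothelial markers. Stc2, Irs1, Grb14, Pdpk1, Pik3cb, Rps6kb1, Lrp1, Tmem219, Itgb1, the other named immune genes and the sebaceous and suprabasal genes were named after their values were seen. The titles share replicate numbers. Arrays of the same number deviated together in the population comparison of both genotypes. There r was 0.11, 0.12 and 0.23 in WT and 0.07, 0.13 and 0.13 in K14ΔNLef1 mice. Each exceeded the highest r with an array of another number. In the genotype comparisons this did not hold for all pairs (r from -0.08 to 0.11). The main fit took arrays as unpaired, and the replicate block shared its terms between the genotypes. Pairing within a genotype was therefore not modelled in the population comparisons. The alternatives were the mean over probe sets, median centring, quantile normalisation, a replicate block, no filter, a stricter filter (75th percentile of the array), an intensity trend, only the arrays compared, and leaving out each array. Leaving out each array in the fit without the filter was added after seeing the data. Cells not fractionated were not analysed here.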

Additional observations from a re-analysis of the deposited data

Results flagged for a closer look

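The genotype effect differed between the populations, by the test of the difference itself, for a pair of IGF pathway genes besides Igfbp2 and Igfbp3. For Htra1 the effect in CD34+ITGA6+ minus that in ITGA6+ cells was 2.22 ± 0.37 on the log2 scale (limma, adjusted p = 0.00655), and it lay between 1.81 and 2.50 in 19 alternative fits. For Igfbp5 it was -2.34 ± 0.39 in the fit without the filter (adjusted p = 0.0139), and it lay between -2.68 and -2.11 when single arrays were left out of that fit. Igfbp5 was above the array median in only 2 of the 12 arrays.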

How the results depend on the processing

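The differences of Igfbp2 and Igfbp3 between the genotypes kept their direction in all 20 alternative fits, and ranged from 0.79 to 1.10 (CD34+ITGA6+) and 3.05 to 3.73 (ITGA6+) for Igfbp2 and from -3.12 to -2.26 and -1.65 to -1.19 for Igfbp3. With the mean over probe sets, Igfbp2 moved by more than its replicate spread, to 3.05 for the genotype in ITGA6+ cells, -2.25 for the population in K14ΔNLef1 mice and -2.14 for the difference of effects. With the replicate block the Igfbp2 and Igfbp3 genotype differences in ITGA6+ cells were 3.55 and -1.46, and the block changed no call of an IGF gene that passed the filter. IGF genes below the filter were not fitted with the block.

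Counts of called genes depended more on the settings. For the genotype in CD34+ITGA6+ cells, 109 genes were called, with 174 under the mean over probe sets, 70 with only the arrays compared, and 71 to 117 with an array left out. For the genotype in ITGA6+ cells the stricter filter, which tests 2327 genes, gave 174 in place of 303, and leaving out an array gave 193 to 316. For the population, the stricter filter gave 516 in place of 982 in WT and 449 in place of 737 in K14ΔNLef1 mice, with 478 to 800 there when an array was left out. For the difference of effects the mean gave 144 and the stricter filter 49, in place of 88. Under quantile normalisation the share of higher calls in the WT population comparison was 43.8% in place of 33.3%, and the median of all genes there was -0.07 in place of -0.17.

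Among IGF genes, the genotype in CD34+ITGA6+ cells gave 1 call in place of 2 with only the arrays compared, and 1 to 2 without an array. The genotype in ITGA6+ cells gave 1 (Igf2r) in place of 0 under the mean, centring and quantile normalisation, and 2 (Irs1, Stc2) without the filter. The population gave 2 in place of 4 under the stricter filter in WT mice. Other settings added calls there. The mean added Pdpk1 and Pik3cb as lower, and the fit without the filter added Grb14 and Igfbp5 as higher. Leaving out certain single WT arrays added Pdpk1, Pik3cb or Rps6kb1 as lower. In K14ΔNLef1 mice the population gave 4 in place of 2 without the filter, 1 under the stricter filter or with only the arrays compared, and 1 to 3 without an array. The difference of effects gave 2 in place of 1 without the filter and 1 to 2 without an array. The causes of these changes were not tested. The 3 arrays per group limit what can be called.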
